A study of Rattus norvegicus with 10 samples.

Results

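ENSRNOT00000050156, ENSRNOT00000049683 and ENSRNOT00000041241 are the 3 annotated transcripts with the highest mean level in rat cerebral cortex in this study, out of 26001 rows with an Ensembl transcript identifier and 395407 rows in all. They were chosen by identifier and by their level over all libraries, in FPKM (fragments per transcript, corrected for its length and for the size of the library). Because of means of 2801 to 9167 FPKM they have been read as messengers encoded by mitochondrial DNA. That reading could not be checked, since neither the deposited tables nor the RefSeq table of rat genes used here pairs the identifiers with a symbol, and 0 of 3 matched. They are therefore called by identifier, without a gene name. Because level chose them, their high level is a description. The tests were of quantities that a high mean level does not fix: differences between surgery groups and how the transcripts varied together within the groups. The choice was made with earlier results of these data known, so the tests are not fully independent of it.

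Mitochondrial DNA encodes a small set of proteins, all of them subunits of the respiratory chain or of ATP synthase, besides the ribosomal and transfer RNAs that the organelle needs to translate them. Both of its strands are transcribed as long precursors that are cut into separate RNAs, so the levels of the single messengers depend on cutting and stability as well as on transcription. Cortical neurons draw most of their ATP from respiration, and occlusion of an artery cuts the supply of oxygen and glucose that respiration uses. This is background on the class to which the 3 transcripts have been assigned and is no result of these data.

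The study compared 5 libraries of cortex from male Sprague-Dawley rats after middle cerebral artery occlusion for 2 h and reperfusion for 24 h (MCAO/R, a model of stroke in which blood flow returns) with 5 libraries of cortex after sham surgery. All rats were 8 to 9 weeks old at 240 ± 20 g, and no genotype or drug is given for either group. MCAO/R libraries carry the replicate numbers 1 to 5 and sham libraries 6 to 10, as in the labels, which do not say that each came from its own animal. The p-values therefore measure the spread between these libraries, which may be partly technical. The labels do not say which part of the cortex was taken, and the cortical identity could not be checked against marker genes without symbols. FPKM keep no count of fragments, and depth is unknown. In bulk tissue, fewer cells of a type and less RNA per cell cannot be told apart.

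Sham replicate 7 stood apart in its sum over annotated rows, and MCAO/R replicate 3 in the joint share of the 3 transcripts. Some other rows, described further below, also stood apart in MCAO/R replicate 3. Sham replicate 7 had the lowest sum over annotated rows, 128381 FPKM, against 156953 to 172480 in the other sham libraries and 180179 to 195539 in MCAO/R libraries. MCAO/R replicate 3 held the smallest share of its annotated sum in the 3 transcripts, a quantity that is itself tested below. Its annotated sum, 180179 FPKM, was near those of its group. It was not marked in the search for outlying libraries given further below. Differences that these libraries move are given with and without them, and leaving out both together was chosen after their values were seen.

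ENSRNOT00000050156 was the most abundant of the 3 transcripts and did not differ between the groups beyond their spread. In MCAO/R libraries 1 to 5 it stood at 14040, 11638, 3855, 10436 and 5606 FPKM. In sham libraries 6 to 10 it stood at 10940, 1714, 10333, 10660 and 12445 FPKM. The 4 sham libraries other than replicate 7 lay close together, whereas MCAO/R replicates 3 and 5 and sham replicate 7 lay far below the rest, and the groups overlapped almost entirely. The means were 9115 ± 4253 FPKM in MCAO/R and 9218 ± 4272 FPKM in sham (SD over 5 libraries per group), a difference of -103 FPKM (two-sided permutation test, exact p = 0.984, adjusted p = 1 over 15 quantities). On the log2(FPKM + 1) scale the fold change was 0.10 ± 0.571 (SE, limma, adjusted p = 0.922 over all mRNA features), with a 95% interval from -1.16 to 1.37. The interval is wide enough to hold a change of more than 2-fold in either direction, so no difference was detectable, which is not the same as no difference. The fold change was -0.43 without sham replicate 7, 0.38 without MCAO/R replicate 3 and -0.16 without both (limma adjusted p = 0.453, 0.691 and 0.716).

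ENSRNOT00000049683 followed a similar course. It stood at 3455, 2900, 1103, 3149 and 5098 FPKM in MCAO/R libraries 1 to 5. It stood at 3852, 570, 3724, 4023 and 4138 FPKM in sham libraries 6 to 10. MCAO/R replicate 3 and sham replicate 7 were again the lowest of their groups, but MCAO/R replicate 5, which was low for ENSRNOT00000050156, was the highest library of all here. The means were 3141 ± 1426 FPKM in MCAO/R and 3261 ± 1513 FPKM in sham (SD over 5 libraries per group, permutation test, exact p = 0.889, adjusted p = 1). The limma fold change was 0.08 ± 0.589 (SE, log2 scale), and its 95% interval ran from -1.23 to 1.38 (adjusted p = 0.945). It was -0.48 without sham replicate 7, 0.41 without MCAO/R replicate 3, -0.14 without MCAO/R replicate 5 and also -0.14 without MCAO/R replicate 3 and sham replicate 7 together (limma adjusted p = 0.418, 0.650, 0.909 and 0.612).

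ENSRNOT00000041241 was the steadiest of the 3 transcripts. It stood at 2632, 2545, 2108, 2228 and 3167 FPKM in MCAO/R libraries 1 to 5. It stood at 2947, 4293, 2437, 2720 and 2936 FPKM in sham libraries 6 to 10. Sham replicate 7, the lowest library for the other two, was the highest here, and the groups overlapped, with 2 MCAO/R libraries below every sham library. The means were 2536 ± 414 FPKM in MCAO/R and 3067 ± 716 FPKM in sham (SD over 5 libraries per group, permutation test, exact p = 0.198, adjusted p = 0.992). The limma fold change was -0.26 with an SE of 0.168 and a 95% interval from -0.63 to 0.11 (adjusted p = 0.309). Quantile normalization, 1 of 5 other scalings between libraries, gave a fold change of -0.64 that passed the threshold (limma adjusted p = 0.0235), while the other scalings did not pass. The FPKM difference had an exact permutation p, not adjusted, of 0.0159 under 3 other scalings (1 sum per library without the 20 highest features, without the 3 transcripts, or median-ratio factors) and of 0.0635 with 1 sum over both tables. Without sham replicate 7 the fold change was -0.13 (limma adjusted p = 0.534), and without it and MCAO/R replicate 3 it was -0.07 (limma adjusted p = 0.743).

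**Figure D1:**
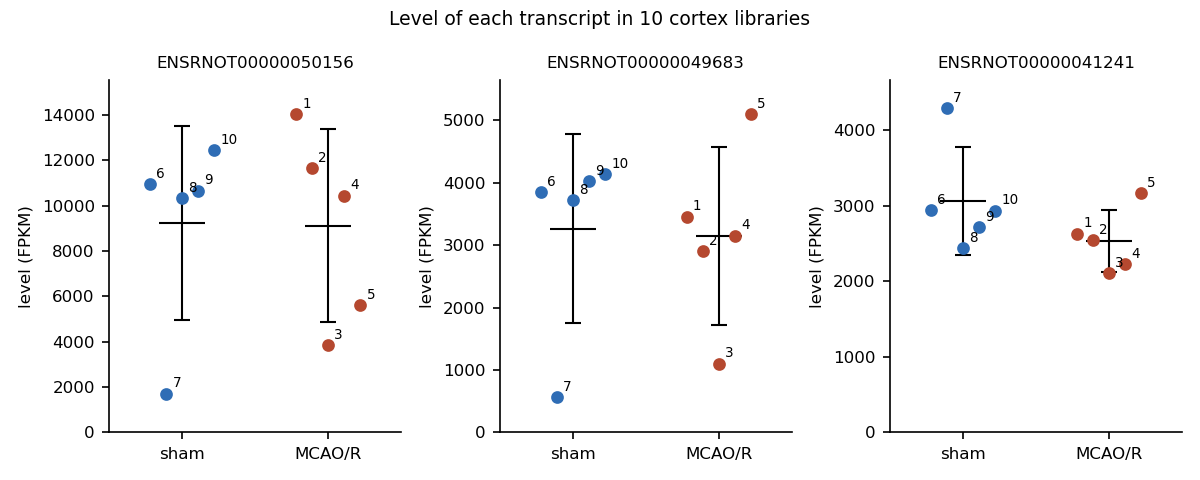
Level in FPKM (vertical axes, linear from 0) of ENSRNOT00000050156, ENSRNOT00000049683 and ENSRNOT00000041241 in 5 sham (blue) and 5 MCAO/R (red) libraries, numbered by replicate, with the mean (bar) and SD (whiskers) of each group. Sham replicate 7 is the lowest library in the left and middle panels, at 1714 and 570 FPKM, and the highest in the right panel, at 4293 FPKM.

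None of the 3 transcripts passed the test as deposited, in a comparison in which many others did. Limma called 20.7% of the 10105 annotated transcripts tested, those averaging 0.5 FPKM or more, a filter that all 3 passed. The groups did not overlap for 17.8% of them, and they overlapped for all 3. In the range of 500 FPKM or more, 35% of 20 annotated transcripts were called. Over all 25038 mRNA features tested, 4890 were called, and 3207 to 5694 with 1 library left out. The median SE of the 20 most abundant was 0.166 on the log2 scale. ENSRNOT00000041241, with an SE of 0.168, was measured about as precisely as that median, whereas the SEs of ENSRNOT00000050156 and ENSRNOT00000049683, 0.571 and 0.589, were more than 3 times as large. The median fold change over all mRNA features was 0.11 on the log2 scale as deposited and -0.08 with factors from the median ratio of annotated transcripts. With the latter scaling the 3 transcripts stood at -0.17, -0.19 and -0.53 in the order in which they are described above (limma adjusted p = 0.859, 0.838 and 0.0712).

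Shares of the annotated sum, which no scaling between libraries alters, showed how much of the annotated signal the 3 transcripts take up. The sum itself was higher in every MCAO/R library (180179 to 195539 FPKM) than in any sham library (128381 to 172480 FPKM). A transcript that is level in FPKM therefore holds a smaller share in MCAO/R libraries. Together the 3 transcripts held 10.7, 9.38, 3.92, 8.47 and 7.09% in MCAO/R libraries 1 to 5. In sham libraries 6 to 10 they held 10.3, 5.12, 10.0, 11.1 and 12.03%. Outside sham replicate 7 every sham library was above 10%, a level that 1 of 5 MCAO/R libraries reached. The means were 7.90 ± 2.58% in MCAO/R and 9.71 ± 2.68% in sham (SD over 5 libraries per group), a difference of -1.80 percentage points that did not pass the test (permutation test, exact p = 0.302, adjusted p = 1). Single libraries moved it. It was -2.95 without sham replicate 7 (permutation test, exact p = 0.0556), -0.81 without MCAO/R replicate 3 (permutation test, exact p = 0.603) and -1.95 without both (permutation test, exact p = 0.0857).

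Of the 3 single shares, that of ENSRNOT00000041241 was the one with the clearest separation, although its FPKM overlapped between the groups and the annotated sum did not. This share was 1.39, 1.40, 1.17, 1.19 and 1.62% in MCAO/R libraries 1 to 5. It was 1.71, 3.34, 1.48, 1.73 and 1.81% in sham libraries 6 to 10. In 4 of 5 MCAO/R libraries the share was below that of every sham library, and MCAO/R replicate 5 was the exception. The means were 1.35 ± 0.183% and 2.01 ± 0.753% (SD over 5 libraries per group, permutation test, exact p = 0.0159), which did not pass after adjustment over the 15 quantities (adjusted p = 0.119). The difference of -0.66 percentage points was -0.33 without sham replicate 7 (permutation test, exact p = 0.0397) and -0.28 without it and MCAO/R replicate 3 (permutation test, exact p = 0.0571). Without any single one of MCAO/R replicates 1 to 4 the exact permutation p was 0.0556 to 0.0635. As a share of both tables together, long non-coding RNA included, the difference was -0.22 percentage points (permutation test, exact p = 0.0635).

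The shares of the other two overlapped between the groups. ENSRNOT00000050156 held 4.88 ± 2.28% of the annotated sum in MCAO/R and 5.68 ± 2.49% in sham cortex (SD over 5 libraries per group, permutation test, exact p = 0.667, adjusted p = 1). ENSRNOT00000049683 held 1.67 ± 0.712% and 2.01 ± 0.889% (permutation test, exact p = 0.476, adjusted p = 1). For both, sham replicate 7 held the lowest share of all 10 libraries, at 1.34% and 0.444%. The share difference of ENSRNOT00000050156, -0.80 percentage points, was -1.88 without sham replicate 7 (permutation test, exact p = 0.183), -0.11 without MCAO/R replicate 3 (permutation test, exact p = 0.944) and -1.20 without both (permutation test, exact p = 0.314). That of ENSRNOT00000049683, -0.34 percentage points, was -0.74, -0.08 and -0.47 in the same order (permutation test, exact p = 0.0794, 0.921 and 0.143).

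**Figure D2:**
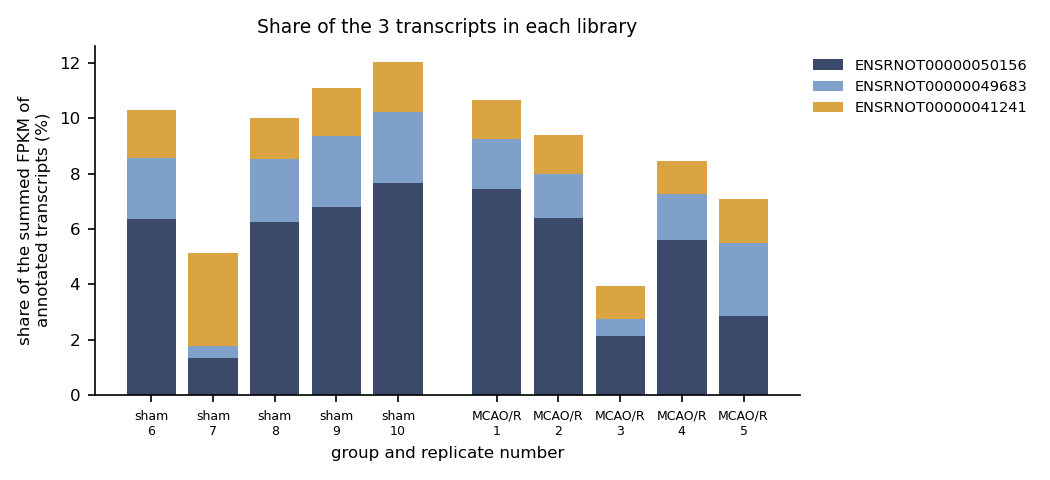
Share of the summed FPKM of annotated transcripts (vertical axis, percent) held by ENSRNOT00000050156, ENSRNOT00000049683 and ENSRNOT00000041241, stacked, in each of the 10 libraries. The stacks of MCAO/R replicate 3 and sham replicate 7 are the lowest, at 3.92% and 5.12%, and in sham replicate 7 ENSRNOT00000041241 takes up the larger part.

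Set against the geometric mean of the 11487 other annotated transcripts that were above 0 in every library, which is again free of scaling, ENSRNOT00000041241 was lower by 0.52 on the log2 scale in MCAO/R than in sham libraries. Centred on the mean of all 10 libraries, this relative level was -0.26 ± 0.21 after MCAO/R and 0.26 ± 0.38 after sham surgery (SD over 5 libraries per group, permutation test, exact p = 0.0159, adjusted p = 0.119). Again 4 of 5 MCAO/R libraries lay below every sham library. The difference was -0.36 without sham replicate 7 (permutation test, exact p = 0.0317) and -0.29 without both MCAO/R replicate 3 and sham replicate 7 (permutation test, exact p = 0.0571). The relative levels of ENSRNOT00000050156 and ENSRNOT00000049683 differed by -0.15 and -0.18 (permutation test, exact p = 0.802 and 0.690). These were -0.66 and -0.71 without sham replicate 7 (permutation test, exact p = 0.206 and 0.0794), 0.12 and 0.16 without MCAO/R replicate 3 (permutation test, exact p = 0.929 and 0.976), and -0.39 and -0.37 without both (permutation test, exact p = 0.286 and 0.114). The rest of the annotated transcripts were not level between the groups in FPKM, with a median fold change of 0.20, so a transcript that is level in FPKM stands lower relative to them.

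The ratio of ENSRNOT00000050156 to ENSRNOT00000049683 within a library was the tightest of the 3 ratios in sham cortex. It was 1.51, 1.59, 1.47, 1.41 and 1.59 on the log2 scale in sham libraries 6 to 10, a mean of 1.51 ± 0.08 (SD over 5 libraries). Sham replicate 7 was at the upper end of this range, next to replicate 10, although both transcripts were several times lower there than in the other sham libraries. In MCAO/R libraries 1 to 5 the log2 ratio was 2.02, 2.00, 1.81, 1.73 and 0.14, a mean of 1.54 ± 0.79. MCAO/R replicates 1 to 4 were above every sham library and replicate 5 was below every one. The difference of the means was 0.03 (permutation test, exact p = 1). Without MCAO/R replicate 5 it was 0.38 (permutation test, exact p = 0.00794, the smallest possible), a value obtained by leaving out the library that went the other way.

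The ratios to ENSRNOT00000041241 were set by the same few libraries. The log2 ratio of ENSRNOT00000050156 to it was 2.42, 2.19, 0.87, 2.23 and 0.82 in MCAO/R libraries 1 to 5. In sham libraries 6 to 10 it was 1.89, -1.32, 2.08, 1.97 and 2.08. The value below 0 in sham replicate 7 means that the order of the transcripts was turned in that library. The difference between the group means was 0.37 (permutation test, exact p = 0.730, adjusted p = 1), and without sham replicate 7 it was -0.30 (permutation test, exact p = 0.444). The log2 ratio of ENSRNOT00000049683 to ENSRNOT00000041241 ran from -0.93 to 0.69 in MCAO/R and from -2.91 to 0.61 in sham libraries, with MCAO/R replicate 3 and sham replicate 7 at the low ends (permutation test, exact p = 0.833, adjusted p = 1). The difference of its means, 0.34, was -0.35 without sham replicate 7 (permutation test, exact p = 0.381).

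**Figure D3:**
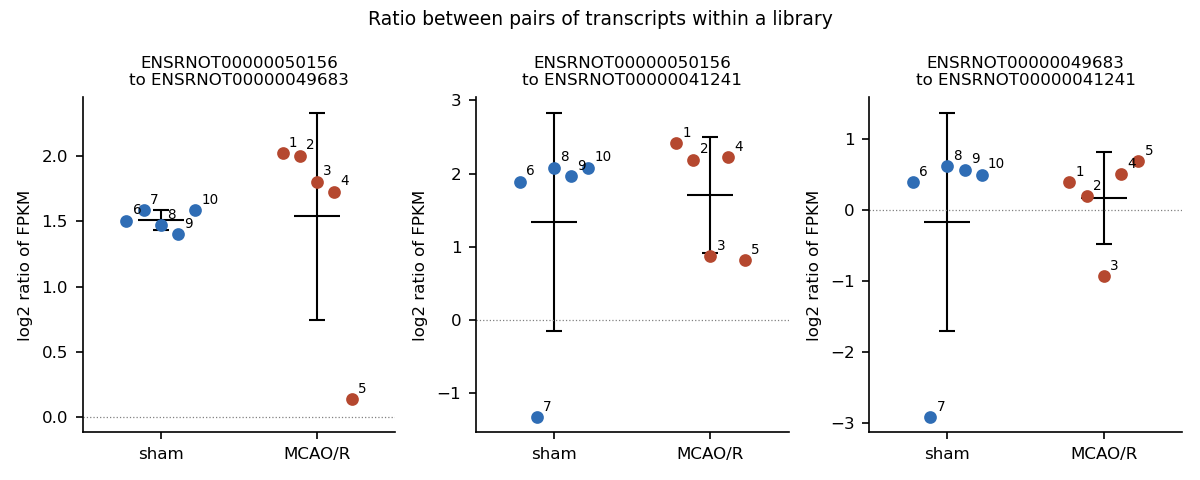
Log2 ratio of FPKM between each pair of transcripts within a library (vertical axes) for 5 sham (blue) and 5 MCAO/R (red) libraries, numbered by replicate, with the mean (bar) and SD (whiskers) of each group. In the left panel the sham libraries lie between 1.41 and 1.59, MCAO/R replicates 1 to 4 lie above them and MCAO/R replicate 5 lies at 0.14.

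The order of the 3 transcripts was not the same in all libraries. ENSRNOT00000050156 was the highest of all annotated rows in 9 of 10 libraries and the third in sham replicate 7. ENSRNOT00000049683 ranged from rank 2 to rank 12 among annotated rows, with the lowest rank in sham replicate 7. ENSRNOT00000041241 ranged from rank 1, in sham replicate 7, to rank 4. By mean level, 9167 FPKM for ENSRNOT00000050156 stood clear of the others, while 3201 FPKM for ENSRNOT00000049683 and 2801 FPKM for ENSRNOT00000041241 differed by less than the spread of the former between libraries. Just below the 3 by mean level came ENSRNOT00000043693, at 2555 FPKM, and ENSRNOT00000046201, at 1307 FPKM.

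How the 3 transcripts varied together was examined on log2 FPKM centred by group, over 10 libraries and 3 pairs. FPKM of 1 library share a total, which ties them to each other. ENSRNOT00000050156 and ENSRNOT00000049683 had Pearson's r = 0.85 (permutation test, exact p = 0.0410 over orders within groups, adjusted p = 0.123) and Spearman's rho = 0.42 (permutation test, exact p = 0.232, adjusted p = 0.696). Without MCAO/R replicate 3 and sham replicate 7, the pair farthest from the median of the former, r was -0.79 (permutation test, exact p = 0.226) and rho was -0.45 (permutation test, exact p = 0.345), so the positive relation rests on those libraries. MCAO/R replicate 5, low for the former and highest for the latter, pulls r the other way. With only that library left out, r was 0.99 (permutation test, exact p = 0.00521, not adjusted). Within the groups of 5, r was 0.51 for MCAO/R and 1.00 for sham libraries, where replicate 7 sets it. An r of this size was not particular to the pair. Among 2347 other rows of both tables averaging 20 FPKM or more, ENSRNOT00000049683 ranked 38 by r with ENSRNOT00000050156. Ranked by r with ENSRNOT00000049683, ENSRNOT00000050156 was 76. At r of 0.9 or more there were 13 and 30 rows, in that order (log2(FPKM + 1) centred by group, a description).

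Over all 10 libraries, no relation of ENSRNOT00000041241 to either of the other two passed the test. Its r with ENSRNOT00000050156 was -0.57 (permutation test, exact p = 0.144, adjusted p = 0.216) and rho was 0.02 (permutation test, exact p = 0.973, adjusted p = 1). With only MCAO/R replicate 3 left out, this r was -0.86 (permutation test, exact p = 0.0497, not adjusted). Without the 2 farthest libraries this r was -0.50 (permutation test, exact p = 0.431) and rho was -0.19 (permutation test, exact p = 0.733). Its r with ENSRNOT00000049683 was -0.35 (permutation test, exact p = 0.346, adjusted p = 0.346), with a rho of -0.01 (permutation test, exact p = 1, adjusted p = 1), and without the same libraries r was 0.79 (permutation test, exact p = 0.0694) and rho was 0.81 (permutation test, exact p = 0.0295, not adjusted). With those libraries left out, the relation of this pair was thus positive in the remaining 8. Taken group by group, r with ENSRNOT00000050156 came to -0.91 for sham against 0.13 for MCAO/R. With ENSRNOT00000049683 the values were -0.92 for sham against 0.83 for MCAO/R. The change of sign was not tested, and sham replicate 7 held the sham extreme of each transcript. Leaving out only this library turned r over both groups to 0.16 and 0.76, in the same order (permutation test, exact p = 0.777 and 0.0778). The negative sham values are therefore not read as a difference between the groups.

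**Figure D4:**
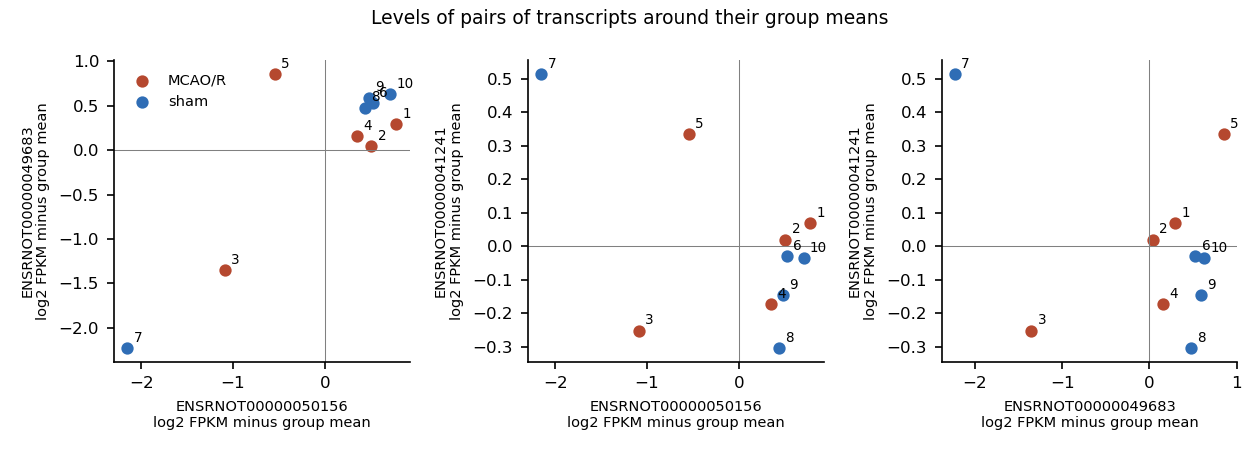
Log2 FPKM minus the group mean of each pair of transcripts (both axes, log2 units), 1 point per library, red for MCAO/R and blue for sham, numbered by replicate. In the left panel MCAO/R replicate 3 and sham replicate 7 lie far from the other libraries at the lower left, and in the other panels sham replicate 7 lies at the upper left.

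The spread of ENSRNOT00000050156 and ENSRNOT00000049683 was wider than that of most annotated transcripts averaging 100 FPKM or more. Their lowest library reached 12.2% and 11.2% of their highest, against 49.1% for ENSRNOT00000041241. Among the 273 annotated transcripts averaging 100 FPKM or more the median was 46.9%, and 22 and 21 of them, respectively, were at or below the values of the former pair. Of the 20 averaging 500 FPKM or more, nearer to their level, 4 and 3 were at or below those values, with a median of 43.3%. A further part of the abundant rows varied more steeply still. The lowest library was under 5% of the highest for 15 of these 273 annotated rows, for 20 of 67 assembled rows of the mRNA table and for 16 of 20 rows of the lncRNA table at the same mean level.

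One of these steep rows was high only in the libraries in which ENSRNOT00000050156 was lowest. Of all 2347 other rows of both tables averaging 20 FPKM or more, the one most opposite to ENSRNOT00000050156 was the assembled lncRNA row MSTRG.236450.3 (r = -0.93 on log2(FPKM + 1) centred by group, given as a description). It stood at 6104, 2016 and 2071 FPKM in MCAO/R replicates 3 and 5 and sham replicate 7, and below 1 FPKM in the other libraries. Those are the same 3 libraries in which ENSRNOT00000050156 was lowest. The sum of all rows of its locus, MSTRG.236450, did not follow that course. It stood at 12911, 34969, 16284, 6713 and 2247 FPKM in MCAO/R libraries 1 to 5. In sham libraries 6 to 10 it stood at 707, 12888, 12667, 13071 and 340 FPKM. The row was not opposite to all 3 transcripts, since ENSRNOT00000041241 was at its highest in sham replicate 7 and ENSRNOT00000049683 in MCAO/R replicate 5. The files give no positions, so whether these rows overlap in the genome is not known from them, and the part of this row in the low values was not tested.

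The transcript next in level, ENSRNOT00000043693, stepped between 2 ranges. It stood between 6.73 and 30.4 FPKM in MCAO/R replicates 1 and 4 and sham replicates 7 and 8, and between 3725 and 5015 FPKM in the other 6 libraries. The assembled rows MSTRG.236454.3 and MSTRG.236454.1, from a single locus, were exchanged in some libraries. The former stood between 4483 and 5824 FPKM in 7 libraries and between 13.2 and 51.7 FPKM in MCAO/R replicate 4 and sham replicates 8 and 9, while the latter reached 11147 and 14210 FPKM in MCAO/R replicate 4 and sham replicate 8. In MCAO/R replicate 5 the latter stood at 754 FPKM while the former was at its highest, so the exchange was not complete. In sham replicate 9 both were low. These steps occurred in both groups. These rows were named after their values were seen.

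**Figure D5:**
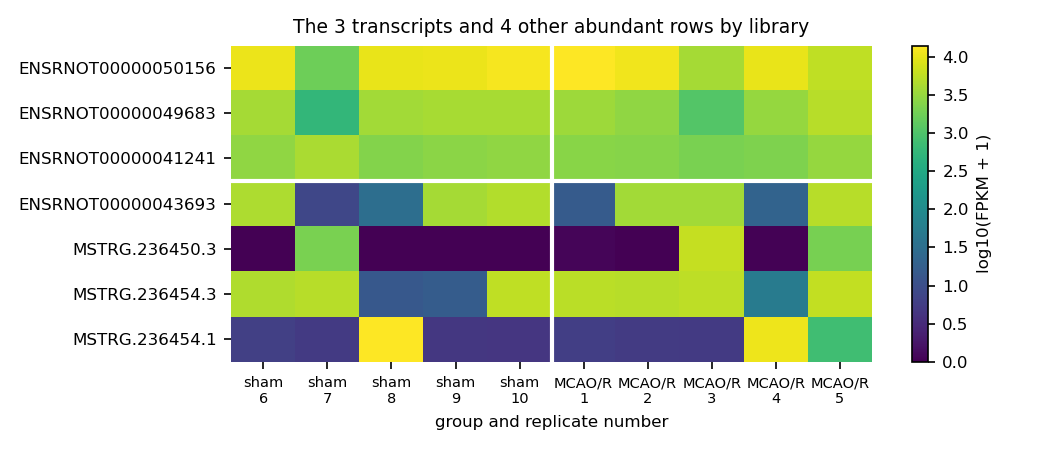
Level of the 3 transcripts (upper block) and of 4 other abundant rows (lower block) in the 10 libraries, as log10(FPKM + 1) in colour. MSTRG.236450.3 is above 1 FPKM in sham replicate 7 and MCAO/R replicates 3 and 5, the libraries in which ENSRNOT00000050156 stands at 1714, 3855 and 5606 FPKM, and ENSRNOT00000043693 steps between 2 ranges.

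The annotated transcripts whose pattern was most like the mean of the 3, among 1587 averaging 20 FPKM or more, were ENSRNOT00000013884 (r = 0.97 over 10 libraries, centred by group) and ENSRNOT00000015935 (r = 0.95). ENSRNOT00000013884 stood at 117 ± 12.7 FPKM in MCAO/R and 68.0 ± 11.3 FPKM in sham cortex (SD over 5 libraries per group) and rose by 0.78 on the log2 scale (limma, SE 0.138, adjusted p = 0.00489). It had its lowest level of each group in MCAO/R replicate 3 and sham replicate 7, at 94.9 and 48.3 FPKM. It was picked for its r, and the 3 transcripts averaged did not vary alike, so the likeness is a description. ENSRNOT00000015935 stood at 27.2 ± 3.48 and 21.7 ± 4.64 FPKM (limma, log2 fold change 0.33, adjusted p = 0.190).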

How the data were processed

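Total RNA of rat cortex was depleted of ribosomal RNA and sequenced as directional libraries from 1.5 µg of RNA, per the labels' protocols. The authors deposited FPKM for mRNA (364224 rows) and lncRNA (31183 rows). The build was Rnor_5.0 per the submitters' processing notes. For the aligner, assembler, counter and the total behind FPKM, the sources used here give nothing. How fragments were divided between overlapping transcript models or repeated sequences, which can move single rows, is likewise unknown.

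Isoforms of an assembled locus were summed, annotated rows kept, and the 25038 features averaging 0.5 FPKM or more fitted on log2(FPKM + 1) with limma 3.58.1 in R 4.3.3 (eBayes with trend, 1 group term, two-sided p, Benjamini-Hochberg over all features, threshold 0.05). Fold changes on this scale understate the change of low features. Levels, shares and ratios were tested by exact permutation, two-sided, over 252 assignments (smallest p = 0.00794) and adjusted over 15 quantities, which overlap in content. Correlations used 14400 orders within groups. Procedures were tested on simulated data. The rule for named transcripts took the 3 members, the next 2 in level and the 2 most alike; the most opposite row to each member and 2 rows of a single assembled locus were added after values were seen. No sequence is printed because no identifier matched. The members and lists were chosen with earlier results of these data known. Alternatives covered pseudocount, filter, scaling, variance model, weights, unit of testing, denominators and left-out libraries.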

Additional observations from a re-analysis of the deposited data

Results flagged for a closer look

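A library far from the other 4 of its group was looked for in 30 sets of 5 values, and 13 were found. Chance marks about 1 in 20 such sets, and the sets share libraries and transcripts. Sham replicate 7 accounts for 12 of the 13. Its levels were 1714 FPKM for ENSRNOT00000050156, 570 FPKM for ENSRNOT00000049683, 4293 FPKM for ENSRNOT00000041241 and 6577 FPKM for their sum, where the nearest sham libraries stood at 10333, 3724, 2947 and 16494 FPKM. Its shares of the annotated sum were 1.34%, 0.444% and 3.34% for the 3 transcripts in that order. Its log2 ratios to ENSRNOT00000041241 were -1.32 for ENSRNOT00000050156 and -2.91 for ENSRNOT00000049683. Relative to the geometric mean of annotated transcripts, and centred on the 10 libraries, it stood at -1.94 for ENSRNOT00000050156, -2.01 for ENSRNOT00000049683 and -0.86 for the sum. In MCAO/R replicate 5 the log2 ratio of ENSRNOT00000050156 to ENSRNOT00000049683 was 0.14, where the next MCAO/R library stood at 1.73.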

How the results depend on the processing

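No paired analysis was possible because the groups share no replicate number. Across 369 combinations of a result and an alternative, 287 kept their direction and side of the threshold, or stayed within the set range for values with no test. Of the rest, 56 turned direction, 15 no longer passed, 6 came to pass and 5 counts moved by over 1.5 times; the cause was not tested. Limma results were judged on adjusted p, permutation tests on p before adjustment. The 15 belong to the share and relative level of ENSRNOT00000041241 and to r of the first pair, which as deposited did not pass after adjustment either. Most turns were of differences near 0 between groups that overlapped.

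Limma fold changes of ENSRNOT00000050156 and ENSRNOT00000049683, 0.10 and 0.08 as deposited, were -0.036 and -0.064 when libraries were set to one sum of both tables, -0.11 and -0.14 when set to one sum leaving out the 20 highest features, -0.095 and -0.12 when the 3 transcripts were left out, -0.17 and -0.19 with median-ratio factors, and -0.16 and -0.14 without MCAO/R replicate 3 and sham replicate 7. Quantile normalization gave -0.082 for the former and array weights -0.043 for the latter. Quantile normalization gave -0.64 for ENSRNOT00000041241, which passed (limma adjusted p = 0.0235, against 0.0712 to 0.743 over its other settings). The median over all mRNA features, 0.11, was -0.00017 with no filter and -0.036, -0.026, -0.075 and -0.050 without the 20 highest in the sum, without the 3 transcripts in the sum, with median-ratio factors and quantile normalization. The features called, 4890, were 1449 with no filter, 2591 with rows as deposited, 1962 with annotated transcripts alone and 3207 to 5694 with 1 library left out.

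With 1 library left out, fold changes ran from -0.43 to 0.38 for ENSRNOT00000050156 and from -0.48 to 0.41 for ENSRNOT00000049683, with the low end without sham replicate 7 and the high end without MCAO/R replicate 3. FPKM differences ran from -1979 to 1212, from -793 to 389 and, for the sum of the 3, from -2996 to 1177. On log2 values the differences of the former pair, -103 and -120 FPKM, were 0.10 and 0.077, and that of ranks was 0.2 for ENSRNOT00000050156. The FPKM difference of ENSRNOT00000041241, -531, was -980, -932 and -1121 without the 20 highest in the sum, without the 3 transcripts in the sum and with median-ratio factors (permutation test, exact p = 0.0159 each).

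Its share difference, -0.66 percentage points, ran from -0.79 to -0.33 with 1 library left out, was -0.22 over both tables and was -0.28 without MCAO/R replicate 3 and sham replicate 7. Its relative difference, -0.52, ran from -0.60 to -0.36 and was -0.29 without these. Relative differences ran from -0.66 to 0.12 for ENSRNOT00000050156 and from -0.71 to 0.16 for ENSRNOT00000049683.

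Log2 ratio differences ran from -0.093 to 0.38 (ENSRNOT00000050156 to ENSRNOT00000049683), from -0.30 to 0.59 (ENSRNOT00000050156 to ENSRNOT00000041241) and from -0.35 to 0.61 (ENSRNOT00000049683 to ENSRNOT00000041241) with 1 library left out, and were -0.02, -0.09 and -0.07 without MCAO/R replicate 3 and sham replicate 7. That of ranks was -0.2 for the third pair. Pearson's r of the first pair was 0.61 on linear FPKM, ran from 0.51 to 0.99 and was -0.79 without those libraries. That of the second ran from -0.86 to 0.16. That of the third ran from -0.66 to 0.76 and was 0.79 without those libraries. Depth is unknown and its limits could not be set.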

Other observations

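The assembled lncRNA row MSTRG.236450.3 and ENSRNOT00000050156 added up to 10739 ± 2352 FPKM in MCAO/R and 9632 ± 3367 FPKM in sham libraries (SD over 5 libraries per group, permutation test, exact p = 0.603), a sum chosen after the values were seen. The row was picked as the most opposite, so adding it had to raise the low libraries. The test compares the groups only, and an exchange between the rows was not tested. This sum reached 9959 FPKM in MCAO/R replicate 3, inside the range of the other libraries, but 3785 FPKM in sham replicate 7 and 7622 FPKM in MCAO/R replicate 5, still the lowest of their groups.

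The row most opposite to ENSRNOT00000049683, ENSRNOT00000047550, stood at 656 FPKM in MCAO/R replicate 3, 335 FPKM in MCAO/R replicate 4 and 721 FPKM in sham replicate 7, and between 3.73 and 5.77 FPKM in the other 7 libraries (r = -0.84, a description). The row most opposite to ENSRNOT00000041241, ENSRNOT00000075423, moved only from 30.1 to 36.96 FPKM over the 10 libraries (r = -0.95), with its lowest level in sham replicate 7.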
